A study of Homo sapiens with 10 samples.

Results

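The DNAJ (HSP40) family encodes co-chaperones with a J domain, and was read out in CH157-MN cells after exposure to an antibody-drug conjugate. Members were the protein-coding genes of the count table whose symbol starts with DNAJ, and there were 45 of them among 58735 genes: 4 of class A, 12 of class B, 28 of class C and the read-through gene DNAJC25-GNG10. CH157-MN is an established human meningioma line. The 5 ADC libraries came from cells harvested 3 days after addition of 100 nM of a humanised conjugate that targets the somatostatin receptor SSTR2 and carries MMAF, a blocker of tubulin polymerisation. The 5 PBS libraries came from the same line given phosphate-buffered saline, for which the labels state no day of harvest. Both groups are replicates of 1 cell line, and no label says whether they were separate cultures, so p-values measure the spread between these libraries, which may be technical.

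J proteins deliver unfolded or native clients to HSP70 chaperones and stimulate their ATPase through a conserved histidine-proline-aspartate motif in the J domain. Class A members carry a glycine/phenylalanine-rich stretch and a zinc-finger region behind an N-terminal J domain, class B members lack the zinc finger, and class C members share little beyond the J domain and are the most varied in function. Several cytosolic members are induced with HSP70 by heat shock factor HSF1 when unfolded proteins accumulate in the cytosol, whereas members of the endoplasmic reticulum (ER) with a J domain in the lumen work with its HSP70, BiP, and some of them are induced in the unfolded protein response.

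Libraries held 28638057 to 36463724 counts in the ADC group and 28262162 to 34473795 counts in the PBS group, and the leading principal component of log2 CPM (counts scaled to a common library total) separated the groups. The mesenchymal and meningioma marker vimentin (VIM) stood at 3485 to 3623 CPM in ADC libraries and 3259 to 3544 CPM in PBS libraries. NF2, also on the list of meningioma and arachnoid markers, had 50.9 to 53.7 CPM in ADC and 51.6 to 59.8 CPM in PBS libraries. Other listed markers were near or at 0. MUC1 had 0.386 to 0.965 CPM in ADC and 0.0593 to 0.647 CPM in PBS libraries, and PTGDS, DSP and CDH1 had at most 0.119 CPM. SSTR2 itself was near the detection limit, at 0.292 to 0.578 CPM in ADC libraries and 0.0883 to 0.749 CPM in PBS libraries, and the progesterone receptor gene PGR had no count in any library, although both are markers of meningioma. Of 4 fibroblast markers PDGFRA and COL1A1 were called higher after ADC, with a summed level of 177 to 217 CPM in ADC libraries and 153 to 173 CPM in PBS libraries. Of 4 endothelial markers PECAM1 was called higher (summed level 3.19 to 4.84 CPM in ADC and 1.42 to 3.0 CPM in PBS libraries). Their part in the DNAJ results was not tested. Of 4 epithelial markers none was called. KRT18 had 205 to 217 CPM in ADC and 199 to 231 CPM in PBS libraries, and KRT8 9.87 to 13.3 and 7.76 to 11.1 CPM. KRT19 had at most 1.55 CPM and EPCAM at most 0.297 CPM. Leukocyte markers summed to 0.301 to 0.556 CPM in ADC libraries and 0 to 0.559 CPM in PBS libraries, with CD3E and LYZ at 0 in all 10.

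The comparison asked which members differed in ADC against PBS libraries. Of the 45 members, 38 passed the filter on low counts and were tested. A gene was called at an adjusted p under 0.05 in edgeR's quasi-likelihood test, fitted and adjusted over all 14504 genes tested. After ADC 7 members fell, DNAJB1, DNAJA4, DNAJB4, DNAJA1, DNAJC3, DNAJC9 and DNAJC10, 1 rose, DNAJC13, and 30 were not called. The 8 called are 21.1% of the tested members, near the 20.8% called among all genes. The calls were uneven in direction, since 18.4% of the tested members were called lower where 10.04% of all genes were, and 2.63% were called higher where 10.8% of all genes were. Scaled to library size alone, 63.3% of the calls over all genes were higher instead of 51.8%, and 6 members fell and 3 rose. The median log2 fold change (ADC minus PBS) was -0.03 over the tested members and -0.00 over all genes. In bulk RNA, fewer cells that express a gene and less RNA per cell cannot be told apart.

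**Figure D1:**
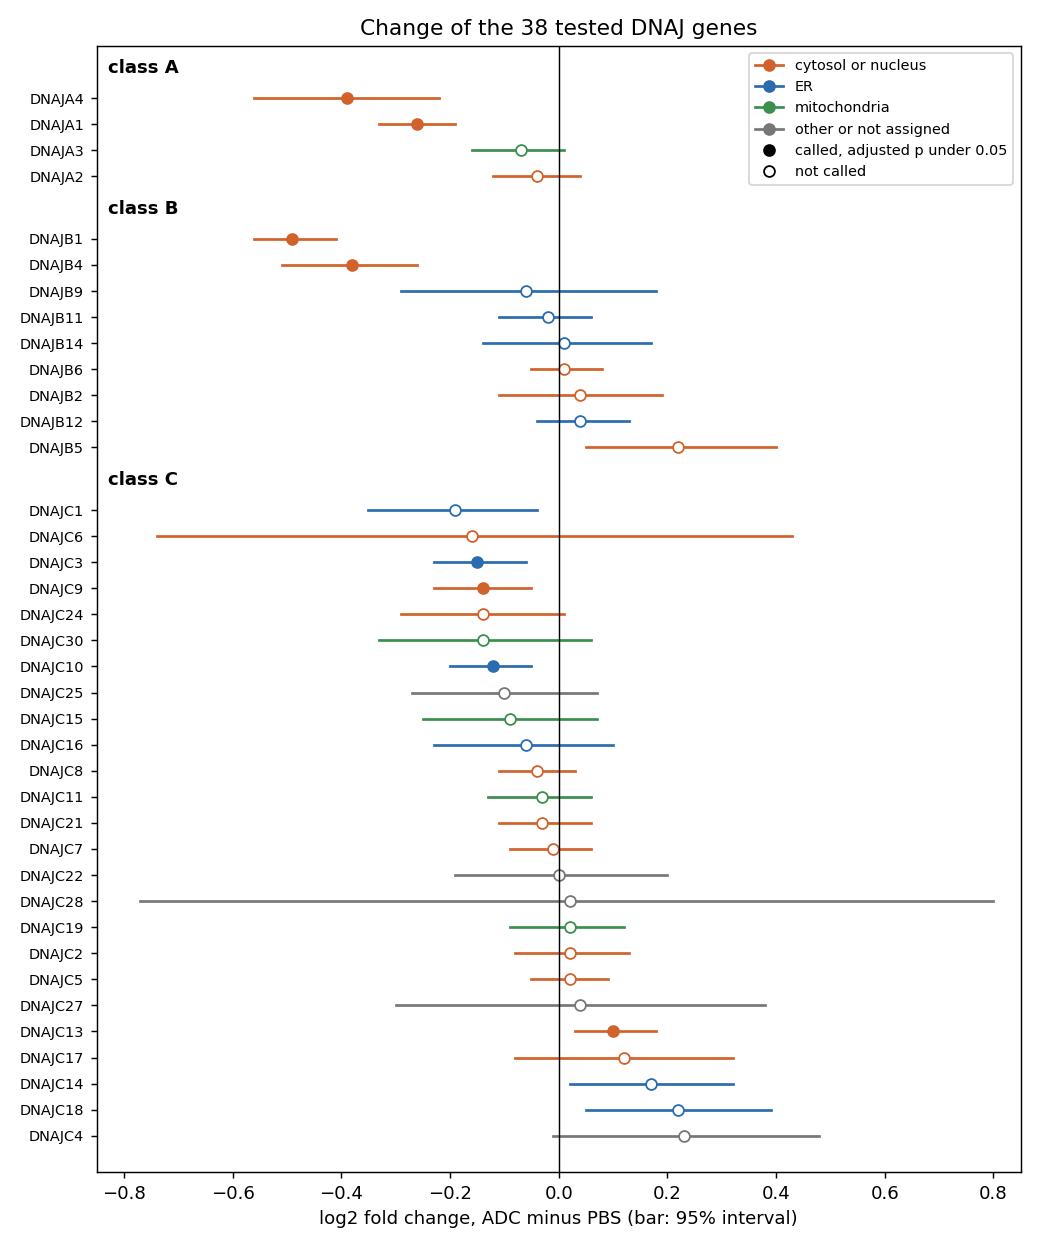
Log2 fold changes (ADC minus PBS, x axis) of the 38 tested DNAJ genes by class, coloured by compartment. Bars are 95% intervals of the edgeR fit and filled points are called. The 4 largest decreases, from -0.49 to -0.26, belong to the cytosolic members DNAJB1, DNAJA4, DNAJB4 and DNAJA1.

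The largest decrease was that of DNAJB1, the classical heat-inducible partner of HSP70. Its level was 123, 124, 120, 129 and 119 CPM in the 5 ADC libraries and 167, 175, 165, 170 and 185 CPM in the 5 PBS libraries, scaled with TMM factors. Every ADC library lay below every PBS library. It fell by 0.49 on the log2 scale (SE 0.04, 95% interval -0.56 to -0.41, adjusted p = 2.0e-11 by edgeR), a 1.40-fold difference, and ranked 46 among the tested genes by p. DNAJA1, a farnesylated class A co-chaperone and the member with the highest level, had 368, 404, 398, 366 and 405 CPM in ADC libraries and 454, 476, 468, 463 and 466 CPM in PBS libraries. ADC libraries 1 and 4 were the lowest, and the groups did not overlap. It fell by 0.26 (SE 0.03, adjusted p = 6.3e-07), or 1.20-fold.

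DNAJB4, a class B relative of DNAJB1, had 31.1, 33.1, 39.2, 35.2 and 34.7 CPM in ADC libraries and 40.7, 43.0, 46.3, 49.3 and 47.1 CPM in PBS libraries. The highest ADC library, replicate 3, came close to the lowest PBS library, replicate 1, without reaching it. The log2 fold change was -0.38 (SE 0.06, adjusted p = 3.1e-05). DNAJA4, the other heat-inducible class A member, had 12.4, 12.4, 12.1, 14.6 and 13.4 CPM in ADC libraries and 16.8, 18.0, 16.3, 18.3 and 15.4 CPM in PBS libraries. Here too the groups did not overlap, and the log2 fold change was -0.39 (SE 0.08, adjusted p = 9.6e-04). The calls of these 4 members held under all 17 alternative settings and left-out libraries.

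**Figure D2:**
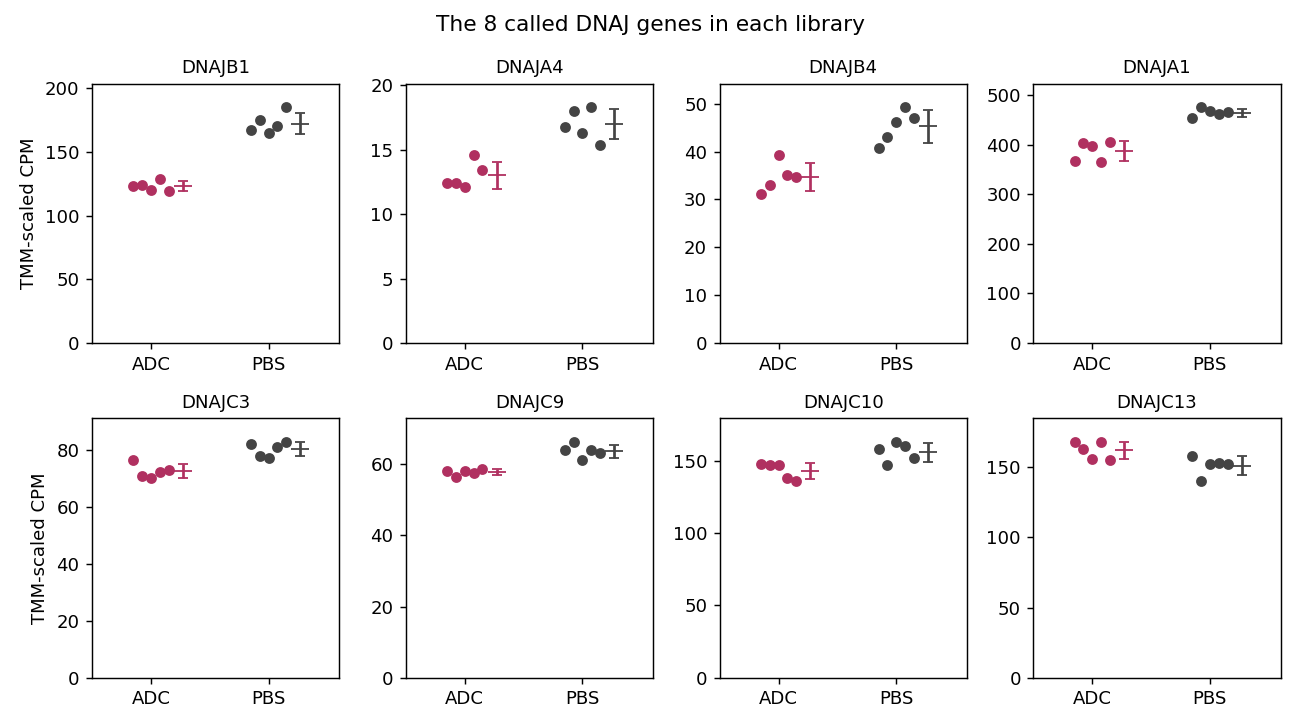
TMM-scaled CPM (y axis, from 0) of the 8 called DNAJ genes, with 1 point per library and the mean and SD of 5 libraries beside the points. ADC and PBS points are apart for DNAJB1, DNAJA4, DNAJB4, DNAJA1, DNAJC3 and DNAJC9, and the groups overlap for DNAJC10 and DNAJC13.

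These 4 genes lie on hg38 at chromosome 19 from 14514770 to 14529770 (DNAJB1, ENSG00000132002, minus strand), chromosome 9 from 33025211 to 33039907 (DNAJA1, ENSG00000086061), chromosome 1 from 77979175 to 78017964 (DNAJB4, ENSG00000162616) and chromosome 15 from 78264086 to 78282196 (DNAJA4, ENSG00000140403), the last 3 on the plus strand. Counts cover whole genes, so no exon is singled out. Of the exonic bases of DNAJB1 6.21% are also exonic on the other strand (TECR and MIR639), and for DNAJA4 the share is 6.68%.

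HSF1 binds inverted repeats of a short GAA unit. The 250 bases before each RefSeq start (build GRCh38.p14) were therefore searched for the 2-unit forms GAANNTTC and TTCNNGAA, each of which reads the same on both strands, and for the 3-unit form (GAANNTTC followed by NN and GAA) on both strands, which contains both. The windows of DNAJB1, DNAJA4, DNAJB4 and DNAJA1 are shown because these members fell most, and that of DNAJB6 because it holds the 3-unit form and was not called. Each reads 5' to 3' toward the start on the strand of the gene, with matches in capitals.
DNAJB1, chr19:14518398-14518647, minus strand: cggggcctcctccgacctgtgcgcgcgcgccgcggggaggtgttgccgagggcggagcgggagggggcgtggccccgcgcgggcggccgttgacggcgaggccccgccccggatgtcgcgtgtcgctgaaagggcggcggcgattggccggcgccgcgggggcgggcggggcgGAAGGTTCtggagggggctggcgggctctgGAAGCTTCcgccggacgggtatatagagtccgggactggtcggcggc
DNAJA4, chr15:78264312-78264561, plus strand: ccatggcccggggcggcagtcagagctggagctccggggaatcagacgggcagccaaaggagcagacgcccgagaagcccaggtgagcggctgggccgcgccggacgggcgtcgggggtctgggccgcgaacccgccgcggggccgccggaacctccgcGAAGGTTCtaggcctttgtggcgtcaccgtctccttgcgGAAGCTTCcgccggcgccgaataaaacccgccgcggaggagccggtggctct
DNAJB4, chr1:78004689-78004938, plus strand: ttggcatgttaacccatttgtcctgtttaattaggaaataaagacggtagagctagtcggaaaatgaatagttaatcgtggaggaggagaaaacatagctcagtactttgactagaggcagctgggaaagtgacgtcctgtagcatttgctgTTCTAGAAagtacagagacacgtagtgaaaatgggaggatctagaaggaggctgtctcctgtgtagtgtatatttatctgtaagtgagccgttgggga
DNAJA1, chr9:33025023-33025272, plus strand: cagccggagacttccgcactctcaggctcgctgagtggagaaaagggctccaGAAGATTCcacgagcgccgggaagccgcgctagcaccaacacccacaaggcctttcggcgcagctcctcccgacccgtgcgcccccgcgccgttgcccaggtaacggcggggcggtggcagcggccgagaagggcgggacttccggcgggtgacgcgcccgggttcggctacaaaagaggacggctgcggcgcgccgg
DNAJB6, chr7:157336754-157337003, plus strand: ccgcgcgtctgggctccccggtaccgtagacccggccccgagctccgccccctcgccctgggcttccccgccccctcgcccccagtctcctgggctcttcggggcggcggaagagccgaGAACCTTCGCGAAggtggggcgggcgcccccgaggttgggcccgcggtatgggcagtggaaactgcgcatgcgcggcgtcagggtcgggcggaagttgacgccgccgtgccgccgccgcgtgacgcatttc

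DNAJB1 held a match that begins 77 bases and another that begins 47 bases before its start, and DNAJA4 held matches 91 and 52 bases before its start. DNAJB4 held a match 98 bases and DNAJA1 a match 198 bases before the start. RefSeq lists more than 1 start for DNAJB1, DNAJA4 and DNAJB4, and in each case 1 of the windows held the motif. A 2-unit form was present for 6 of the 35 tested members with a window (17.1%), where 14% of all 27305 genes with a window had one, so the share among tested members is near that of all genes. Per window it was 6 of the 47 windows of these 35 members (12.8%) and 11.6% of all 35116. The other tested members with a match were DNAJB6 and DNAJC15 (189 bases before the start), and neither was called. The untested DNAJB7 held a match 208 bases before its start. The 3-unit form was found in the DNAJB6 window, and in 0.441% of all windows. The ER stress element (CCAAT, 9 free bases and CCACG), searched on both strands, was in 0 of these 47 windows and in 0.0740% of all windows. A match is a run of letters and does not show binding.

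By class, 2 of 4 tested class A members fell (DNAJA4 and DNAJA1), and 2 of 9 class B members fell (DNAJB1 and DNAJB4). Of 25 class C members 3 fell and 1 rose. Beside the 20.8% of all genes called, the share was higher in class A, near it in class B (22.2%) and lower in class C. The median log2 fold change was -0.17 in class A, 0.01 in class B and -0.03 in class C. DNAJA2, a constitutive co-chaperone in substrate refolding, had 83.1 ± 2.55 CPM in ADC and 85.4 ± 2.93 CPM in PBS libraries (SD, n = 5 each), with a log2 fold change of -0.04 (interval -0.12 to 0.04). DNAJA3, the partner of mitochondrial HSP70, had 75.0 ± 2.21 CPM in ADC and 79.0 ± 2.16 CPM in PBS libraries, with a log2 fold change of -0.07 (interval -0.16 to 0.01). No test was made between classes, since members are not replicates.

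Among the other cytosolic class B members, DNAJB6, which suppresses aggregation of polyglutamine and amyloid proteins, had 317, 307, 303, 311 and 327 CPM in ADC libraries and 305, 317, 305, 305 and 317 CPM in PBS libraries. The groups overlapped, and the 95% interval of its log2 fold change ran from -0.05 to 0.08. DNAJB2, which binds ubiquitin and sends clients to the proteasome, had a log2 fold change of 0.04 (interval -0.11 to 0.19). DNAJB5 had 15.2 ± 1.24 CPM in ADC and 13.0 ± 1.17 CPM in PBS libraries, a log2 fold change of 0.22 (SE 0.09, adjusted p = 0.0665 by edgeR). It was called with DESeq2 (adjusted p = 0.0443), with library size alone (0.0459), without PBS replicate 4 (0.0390) and without ADC replicate 5 (0.0463).

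Log2 fold changes of cytosolic and nuclear class C members lay between -0.16 and 0.12. DNAJC9, a co-chaperone of histones H3 and H4, had 58.0, 56.5, 58.2, 57.6 and 58.7 CPM in ADC libraries and 64.0, 66.3, 61.1, 63.9 and 63.2 CPM in PBS libraries. Every ADC value was lower than every PBS value, and its log2 value fell by 0.14 (SE 0.04, adjusted p = 0.0177 by edgeR). Of its exonic bases 28.6% are shared with genes on the other strand, so its value is uncertain where the counting ignored strand. DNAJC13 (RME-8), an endosomal member that acts in membrane sorting, was the sole member called higher. Its level was 168, 163, 156, 168 and 155 CPM in ADC libraries and 158, 140, 152, 153 and 152 CPM in PBS libraries. The highest PBS library stood above the lowest ADC libraries. The log2 fold change was 0.10 (SE 0.04, adjusted p = 0.0493), and the call was lost in turn when ADC replicate 1, 2 or 4 or PBS replicate 2, 3, 4 or 5 was left out (adjusted p 0.0648 to 0.142) and with no filter on low counts (0.0662).

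The other cytosolic members were not called. DNAJC7, a TPR-repeat protein that binds both HSP70 and HSP90, had 101 ± 1.71 CPM in ADC and 102 ± 3.02 CPM in PBS libraries (interval of the log2 fold change -0.09 to 0.06). The vesicle protein DNAJC5 (cysteine string protein) had 261 ± 5.41 and 257 ± 13.8 CPM in ADC and PBS libraries (interval -0.05 to 0.09), and the spliceosome-associated DNAJC8 had 182 ± 6.36 and 187 ± 6.64 CPM (interval -0.11 to 0.03). The ribosome-associated DNAJC2 and DNAJC21, which acts in ribosome maturation, had log2 fold changes of 0.02 and -0.03. DNAJC17, a nuclear splicing-related member, had one of 0.12 (SE 0.10), and 26.1% of its exonic bases are shared with genes on the other strand. DNAJC24, which acts in diphthamide synthesis, was lower in every ADC library than in any PBS library without being called (17.2 ± 0.498 CPM in ADC, 18.9 ± 1.39 CPM in PBS, adjusted p = 0.195). For auxilin (DNAJC6), which uncoats clathrin vesicles, the level of 1.29 ± 0.417 CPM in ADC and 1.44 ± 0.437 CPM in PBS libraries left an interval of -0.74 to 0.43, so no difference was detectable at this depth.

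Of the 18 tested cytosolic or nuclear members 5 fell and 1 rose, and of the 10 tested ER members 2 fell and 0 rose. Called in either direction were 33.3% of the cytosolic or nuclear members, beside 20.8% of all genes. The share of ER members called was slightly under that of all genes. Called lower were 27.8% of the cytosolic or nuclear members, beside 10.04% of all genes, and the ER share also exceeded 10.04%. With so few members, a difference from all genes was not tested. The medians were -0.03 in the cytosol and -0.04 in the ER. The range of log2 fold changes was -0.49 to 0.22 among cytosolic and -0.19 to 0.22 among ER members. The 4 decreases past 0.2 on the log2 scale were thus cytosolic, and no test of the difference between compartments was made.

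Among ER members, DNAJC3 (ERdj6), a luminal co-chaperone of BiP, had 76.6, 70.9, 70.3, 72.5 and 73.0 CPM in ADC libraries and 82.4, 78.2, 77.5, 81.3 and 83.0 CPM in PBS libraries. The groups did not overlap, and it fell by 0.15 (SE 0.04, adjusted p = 0.00967 by edgeR). DNAJC10 (ERdj5), a disulphide reductase of the lumen, had 148, 147, 147, 138 and 136 CPM in ADC libraries and 158, 147, 163, 160 and 152 CPM in PBS libraries. PBS replicate 2 lay within the ADC values. It fell by 0.12 (SE 0.04, adjusted p = 0.0158), and the call ended with library size alone (adjusted p = 0.0585), without PBS replicate 3 (0.0634) and without ADC replicate 4 (0.0575).

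The other 3 members grouped here by a luminal J domain were not called. DNAJC1, a ribosome-associated membrane member, had 21.5 ± 1.07 CPM in ADC and 24.6 ± 2.65 CPM in PBS libraries (log2 fold change -0.19, SE 0.07, adjusted p = 0.0637 by edgeR), and it was called with DESeq2 (0.0457) and without PBS replicate 1 (0.0135). DNAJB11 (ERdj3), a secreted and luminal partner of BiP, had 65.1 ± 2.0 and 66.1 ± 1.30 CPM in ADC and PBS libraries (interval -0.11 to 0.06). DNAJB9 (ERdj4), which represses the stress sensor IRE1 and is induced in the unfolded protein response, had 6.01, 8.06, 6.67, 7.63 and 8.90 CPM in ADC libraries and 7.14, 7.08, 8.55, 8.13 and 7.83 CPM in PBS libraries. These groups overlapped, with a log2 fold change of -0.06 (interval -0.29 to 0.18).

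ER membrane members had smaller or opposite values and none was called. DNAJB12 and DNAJB14, whose J domains face the cytosol, had log2 fold changes of 0.04 (SE 0.04) and 0.01 (SE 0.08), and DNAJC16 one of -0.06 (SE 0.08). DNAJC18 had 20.9, 16.5, 17.8, 18.6 and 16.2 CPM in ADC libraries and 16.1, 15.7, 16.0, 13.7 and 16.1 CPM in PBS libraries, with no overlap. Its log2 fold change of 0.22 (SE 0.08) missed the threshold at adjusted p = 0.0639 by edgeR. It was called with DESeq2 (0.0448), with library size alone (0.0430), without ADC replicate 2 (0.0488) and without ADC replicate 5 (0.0372). DNAJC14 had one of 0.17 (SE 0.08, adjusted p = 0.112), and was called without PBS replicate 3 (0.0494) and without ADC replicate 5 (0.0396). Of its exonic bases 23.2% are shared with genes on its own strand and 34.9% with genes on the other.

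None of the 5 mitochondrial members was called. Log2 fold changes ran from -0.14 for DNAJC30, which is linked to respiratory complexes, to 0.02 for DNAJC19 (TIM14), a subunit of the import motor of the inner membrane. DNAJC19 had 37.2 ± 1.13 CPM in ADC and 36.9 ± 0.913 CPM in PBS libraries. DNAJC15, another inner membrane member, had a log2 fold change of -0.09 (SE 0.08) and DNAJC11, which organises mitochondrial membranes, one of -0.03 (SE 0.05). None of the 5 tested members of other or unassigned location was called either. Their log2 fold changes were -0.10 for DNAJC25, 0.00 for DNAJC22, 0.02 for DNAJC28, 0.04 for the RAB-related DNAJC27 and 0.23 for DNAJC4 (SE 0.12, adjusted p = 0.172). The counts of ER members and of those with a luminal J domain leave out all of these, DNAJC25 included.

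Across the 30 members not called, the 95% interval lay wholly within 0.2 of 0 on the log2 scale (1.15-fold) for 15 members, and it excluded 0 for 4, DNAJC1, DNAJC18, DNAJB5 and DNAJC14. The coefficient of variation between libraries had a median of 5.35% in ADC and 6.64% in PBS over the tested members. It reached 32.2% in ADC libraries, for DNAJC6, and 50.4% in PBS libraries, for DNAJC28, the tested members with the lowest counts. ADC and PBS values were fully apart for 8 of 38 members (21.1%), where 14.2% of all genes tested did not overlap.

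Of the 7 members left untested, DNAJB8, DNAJC5B, DNAJC5G and DNAJC25-GNG10 had no count in any library. A count of 0 allows up to 0.0823 to 0.105 CPM per ADC library and 0.0870 to 0.106 CPM per PBS library, for counting error alone. Every exonic base of DNAJC25-GNG10 is shared with DNAJC25 or GNG10. DNAJB13, a protein of cilia and sperm, had 0 counts in ADC libraries and 0 to 4 in PBS libraries, and DNAJB7 had 0 to 11 in ADC and 0 to 9 in PBS libraries. DNAJC12, a co-chaperone of aromatic amino acid hydroxylases, had 6, 0, 1, 1 and 4 counts in ADC libraries and 0 in each PBS library, too few for a test or a fold.

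Per kilobase of gene model, DNAJA1 stood at 142 ± 7.20 CPM in ADC and 170 ± 2.92 CPM in PBS libraries, the highest level of the family in both groups. It was followed by DNAJC8 (63.0 ± 2.20 and 64.9 ± 2.30 CPM per kilobase in ADC and PBS), DNAJC5 (49.4 ± 1.02 and 48.6 ± 2.61), DNAJB1 (33.5 ± 1.08 and 46.9 ± 2.20) and DNAJB6 (20.9 ± 0.634 and 20.7 ± 0.449). DNAJC5 and DNAJB1 were within their spread of each other in PBS libraries and apart in ADC libraries. DNAJB4 stood at rank 16 in ADC and rank 12 in PBS libraries. The longest gene model was that of DNAJC10, at 21835 bases, and annotated bases that a cell does not transcribe lower a level per kilobase.

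**Figure D3:**
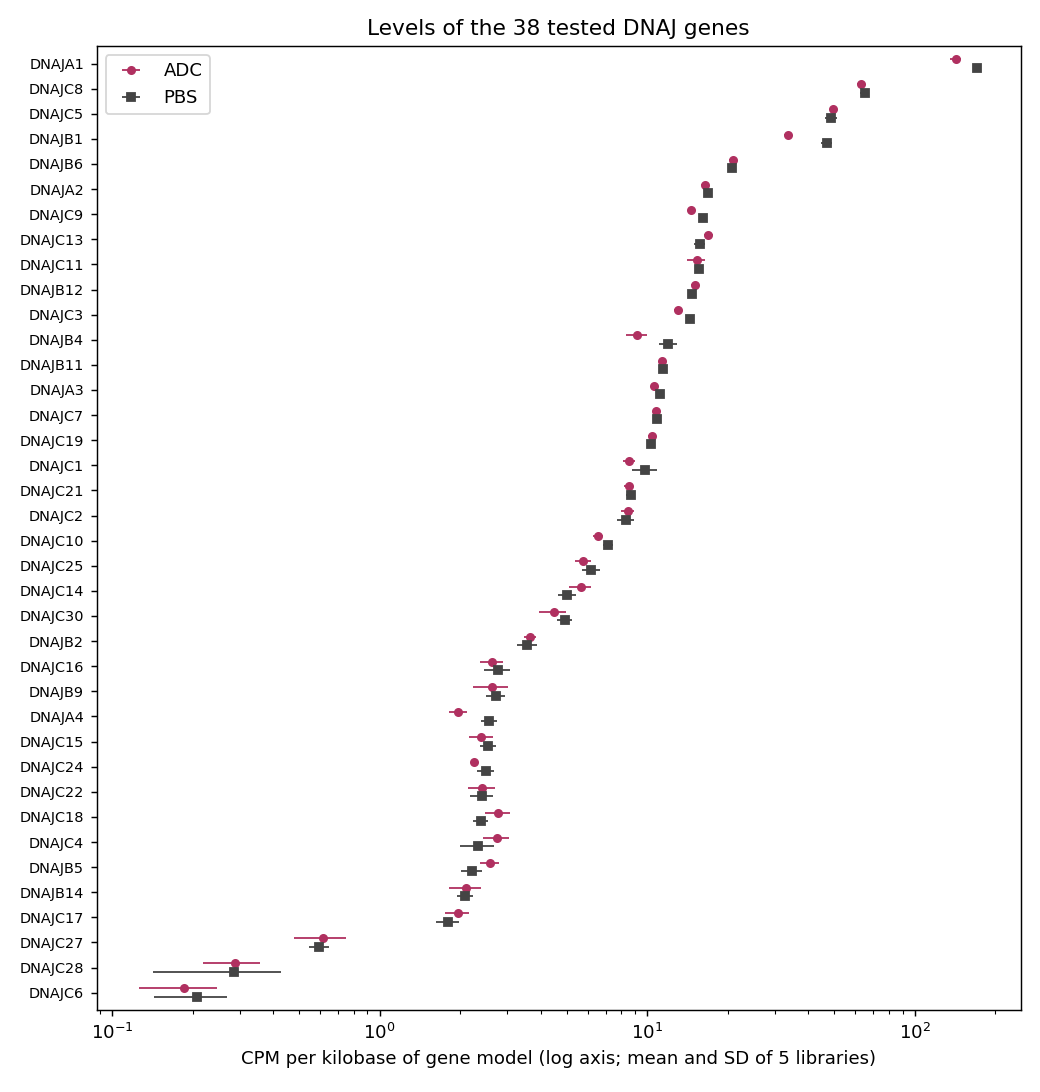
Levels of the 38 tested DNAJ genes in CPM per kilobase of gene model (log axis), as the mean and SD of 5 ADC and 5 PBS libraries, sorted by the PBS level. DNAJA1 is highest at 142 in ADC and 170 in PBS, and DNAJC6 lowest at 0.186 in ADC and 0.207 in PBS.

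Summed over all members, the family took 0.267% to 0.270% of counts in ADC libraries and 0.278% to 0.283% in PBS libraries. The summed level was 2668 ± 23.8 CPM in ADC and 2831 ± 23.9 CPM in PBS libraries. The sum was thus 163 CPM lower after ADC. DNAJA1 accounted for 77.4 CPM of this and DNAJB1 for 49.3 CPM, and with DNAJB4 and DNAJA4 the 4 members made up 86.9% of it. DNAJA1 made up 13.8% to 15.1% of family counts in ADC and 16.2% to 16.7% in PBS libraries. Long genes weigh more in such sums.

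Most genes of a list of HSP70 chaperones were lower as well. The list leaves out BiP (HSPA5) of the ER and HSPA9 of mitochondria, which stand in the ER and mitochondrial lists below. Of its 7 tested genes 6 fell and 0 rose, with a median log2 fold change of -0.31. Outside it, HSPA5 rose (0.10) and HSPA9 was not called (0.03). HSPA8, the constitutive cytosolic HSP70, had 3171 ± 139 CPM in ADC and 3865 ± 70.8 CPM in PBS libraries (SD, n = 5 each), and fell by 0.29 (SE 0.03, adjusted p = 4.7e-09 by edgeR). The stress-inducible HSPA1B and HSPA1A had log2 fold changes of -1.22 and -0.92 (adjusted p = 1.4e-15 and 2.8e-14), and HSPA1L, their neighbour in the same cluster, one of -1.07 (adjusted p = 0.00281). HSPA1L stood low, at 1.11 ± 0.329 CPM in ADC and 2.35 ± 0.680 CPM in PBS libraries, with an SE of 0.26. Reads may be shared between HSPA1A and HSPA1B, which are near-identical copies, and sharing with HSPA1L was not tested. The calls of the testis-enriched HSPA2 and of HSPA14, a ribosome-associated member, were fragile. That of HSPA2 was lost without ADC replicate 1 or 2 or PBS replicate 5 and with no filter (adjusted p 0.0534 to 0.0794), and that of HSPA14 with library size alone (0.108) and without ADC replicate 1, 2, 3 or 5 or PBS replicate 1, 4 or 5 (0.0612 to 0.162). Of 9 listed nucleotide exchange factors, which release ADP and client from HSP70, 6 fell and 0 rose, with a median of -0.12. This list too leaves out those of the ER and mitochondria. HYOU1 (-0.01) and SIL1 (0.08) of the ER were not called, nor were GRPEL1 (-0.08) and GRPEL2 (0.13) of mitochondria. The 6 that fell included HSPH1 (-0.21, SE 0.03, adjusted p = 2.9e-05), BAG3 (-0.17, SE 0.03, adjusted p = 1.9e-04) and HSPA4L (-0.18, SE 0.05, adjusted p = 0.0145). The other 3 calls were less stable, and 4 of the 6 remained with library size alone and without ADC replicate 1. HSPA4 lost its call in 6 settings (adjusted p 0.0512 to 0.0823), among them those without ADC replicate 1, 3 or 4 or PBS replicate 3. BAG2 lost its call in 5 (0.0515 to 0.0744), among them those without ADC replicate 1 or 5 or PBS replicate 4 or 5, and BAG4 without ADC replicate 2 (0.0554) or 5 (0.0533).

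Of 10 HSP90 proteins and co-chaperones, HSP90AA1 (-0.38), AHSA1 (-0.15) and PTGES3 (-0.12) fell, STUB1 (0.16, adjusted p = 0.0351 by edgeR), a ubiquitin ligase that binds chaperones, rose, and 6 were not called. The STUB1 call ended without PBS replicates 1 or 5 or ADC replicates 1, 3 or 5 (adjusted p 0.0544 to 0.117). The constitutive HSP90AB1 had a log2 fold change of -0.01 (SE 0.03). Of 16 HSF1-responsive genes outside the family, most of which also stand in the lists above, 11 fell and 0 rose, with a median of -0.17. The 3 with the smallest adjusted p were HSPA1B, HSPA1A and HSP90AA1. SERPINH1, a collagen chaperone of the ER among the 11, lost its call with library size alone and without ADC replicate 2, 3 or 4 or PBS replicate 2, 4 or 5 (adjusted p 0.0508 to 0.0939). The small heat shock protein gene HSPB1 was not called (log2 fold change 0.09, SE 0.04, adjusted p = 0.167 by edgeR). It was called higher only without PBS replicate 2 (log2 fold change 0.14, adjusted p = 0.00390). These list shares stand beside 10.04% of all genes called lower and 10.8% called higher.

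Genes of the ER folding machinery were tested as well. Of 19 tested ER chaperone and ER stress genes 3 rose and 1 fell, with a median of 0.08. The called were 21.1% of the list, near the 20.8% of all genes. Called higher were 15.8%, beside 10.8% of all genes, and called lower 5.26%, beside 10.04%. BiP (HSPA5), the partner of DNAJC3 and DNAJC10, had 1375 ± 43.8 CPM in ADC and 1282 ± 24.3 CPM in PBS libraries, a log2 fold change of 0.10 (SE 0.03, adjusted p = 0.0105 by edgeR). HSP90B1 (0.16, SE 0.03, adjusted p = 2.8e-04) and the stress transcription factor gene ATF4 (0.19, SE 0.03, adjusted p = 2.0e-05) also rose. The lectin chaperone calnexin (CANX) fell by 0.09 (SE 0.03, adjusted p = 0.0257). Its call ended with library size alone (0.0863), with no filter (0.0566), and without PBS replicates 3 or 5 or ADC replicates 1 or 5 (0.0602 to 0.0813). Of 10 mitochondrial chaperones HSPD1 (-0.16, SE 0.03, adjusted p = 1.3e-04) fell, and HSPA9, the partner of DNAJA3 and DNAJC19, had a log2 fold change of 0.03 (SE 0.03).

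**Figure D4:**
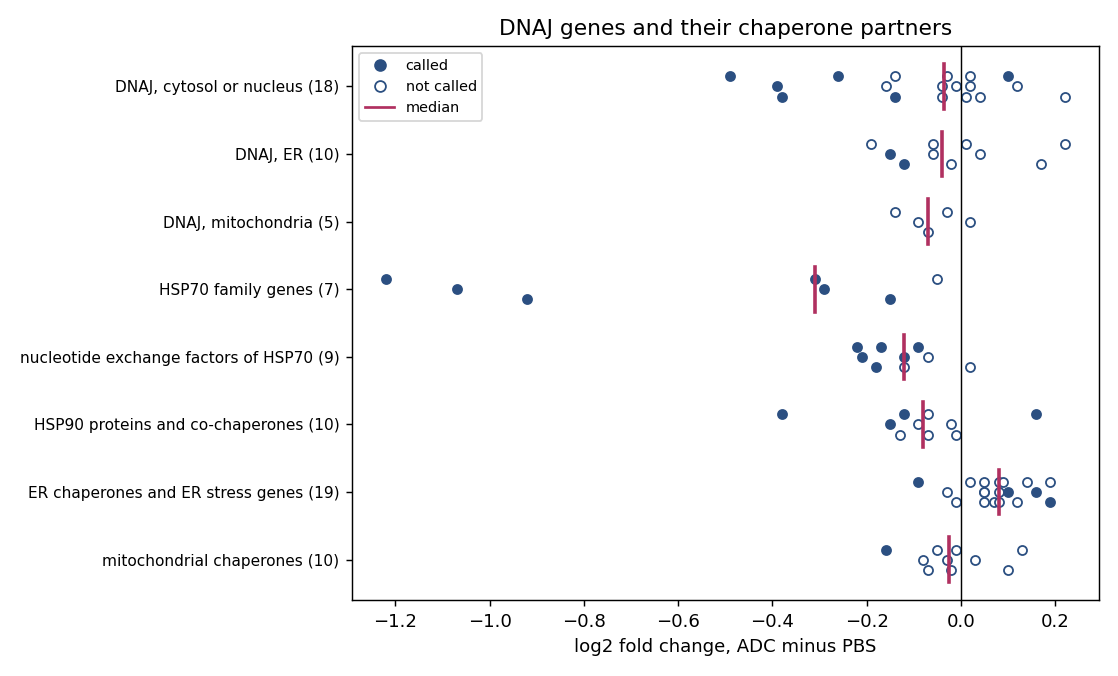
Log2 fold changes (ADC minus PBS, x axis) of the tested DNAJ genes by compartment and of 5 lists of partner genes, with 1 point per gene, filled where called, the median as a line and the number of genes in brackets. The medians are -0.03 for cytosolic and -0.04 for ER DNAJ genes, -0.31 for HSP70 family genes and 0.08 for ER chaperones. HSPA5 and HSPA9 are plotted with the ER and mitochondrial lists.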

How the data were processed

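Poly(A)-selected RNA from 5 ADC and 5 PBS libraries was sequenced, per the labels' protocols, which do not say whether strand was kept. The values deposited by the authors are raw gene counts, whole numbers without normalisation, beside gene lengths in bases. Of tools the submitters' processing notes list HISAT2, HISAT and TopHat2, with no role for any, and of builds hg38. The counting tool is not given in the sources used here. Low counts (2 to 21) were even in 65.4% to 67.3% of cases, so both mates of a read pair may have been counted, and limits of detection may be too low. No 2 libraries of a group agreed within sampling noise (chi-square 5.18 to 16.5 times its degrees of freedom).

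Counts were scaled with TMM factors and filtered with filterByExpr (minimum count 10, minimum total 15), and ADC was compared with PBS in edgeR 4.0.16 under R 4.3.3 with the quasi-likelihood test, which is two-sided. P-values were adjusted over 14504 genes by the Benjamini-Hochberg method. The standard error is the absolute log2 fold change over the square root of F, and 95% intervals use the degrees of freedom of the fit. Alternatives were DESeq2 1.42.0, limma-voom 3.58.1, library size alone, 2 other filters, halved counts, the replicate number as a block, and each library left out.

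Exon overlaps come from GENCODE release 29 and start windows from RefSeq (GRCh38.p14), which matched 41 of the 45 members. Class, compartment and partner lists follow textbook knowledge. Members and lists were chosen with earlier results of these data known. Every member is accounted for. Called members and 13 main members by role are named, and in partner lists the called genes up to 5 per direction, or the 3 with the smallest adjusted p. The grouping of ER members by the side of the J domain was added after their values were seen. So were HSPA1L, HSPA2, HSPA14, HSPA4, BAG2, BAG4, HYOU1, SIL1, GRPEL1, GRPEL2, SERPINH1, HSPB1, HSP90AB1 and HSPA9. Some items are not reported here.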

Additional observations from a re-analysis of the deposited data

Results flagged for a closer look

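Among 76 groups of 5 libraries (38 tested members in ADC and in PBS), 7 held a library set apart from the other 4 by more than 0.71 of the range of the group. Chance flags about 1 in 20 groups. In ADC libraries, replicate 2 had 252 CPM of DNAJC5 where the others had 263 to 264 CPM. In PBS libraries, replicate 3 had 75.4 CPM of DNAJC11 (others 79.7 to 81.2), replicate 4 had 13.7 CPM of DNAJC18 (others 15.7 to 16.1) and 107 CPM of DNAJC7 (others 99.7 to 101). PBS replicate 5 had 21.3 CPM of DNAJC24 (others 17.9 to 18.7) and 13.8 CPM of DNAJC25 (others 16.4 to 16.7), and PBS replicate 2 had 2.19 CPM of DNAJC6 (others 1.12 to 1.43). None of the 7 groups belongs to a called member.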

How the results depend on the processing

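The members called numbered 8, and 6 to 11 over the alternatives, and those called lower 7, and 6 to 8. The count called higher, 1, became 3 with DESeq2 and 3 with library size alone, 0 with no filter on low counts, and 0 to 4 with a library left out. It was 0 without PBS replicates 2 or 5 or ADC replicates 1 or 4, and 4 without ADC replicate 5. A count of 1 was not always DNAJC13. In its place stood DNAJC14 without PBS replicate 3 (adjusted p = 0.0494 by edgeR), DNAJB5 without PBS replicate 4 (0.0390) and DNAJC18 without ADC replicate 2 (0.0488). The median log2 fold change of the tested members, -0.029, was -0.007 with library size alone and -0.047 to -0.017 with a library left out. Genes called over the whole table ranged from 2491, without ADC replicate 1, to 3362, with DESeq2. With the replicate number as a block, 8 members and 3152 genes were called. Same-numbered libraries did not deviate together (correlations -0.00717 to 0.0404, best with the own number for 1 of 5). The labels do not state whether the numbers pair the samples, and these correlations cannot settle it. No call of a member changed with the block. A mean of at least 1 CPM left DNAJC28 untested. ER chaperone genes called higher numbered 5 instead of 3 under DESeq2, under library size alone and when genes needed a mean of 1 CPM, and a mitochondrial chaperone (LONP1) was called higher in 5 settings. The causes of these changes were not tested. Under about 2 CPM the intervals of DNAJC6 and DNAJC28 span more than 1 on the log2 scale.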

Other observations

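Some J-domain genes carry names outside the DNAJ series. SEC63, which recruits BiP to the ER translocon, had 111 ± 1.55 CPM in ADC and 101 ± 5.61 CPM in PBS libraries (SD, n = 5 each), and rose by 0.12 (SE 0.04, adjusted p = 0.0219 by edgeR). That call ended without PBS replicate 3 (adjusted p = 0.0783) and without PBS replicate 5 (0.0705). The clathrin-uncoating kinase gene GAK, a relative of auxilin, had a log2 fold change of 0.04 (SE 0.05), and HSCB, which acts in iron-sulphur cluster assembly, one of 0.18 (SE 0.13, adjusted p = 0.357).

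Pseudogenes named after members took few counts. DNAJC8P1, the highest, had 7 to 20 counts in ADC and 10 to 22 in PBS libraries, and DNAJC19P9 had 5 to 10 in ADC and 5 to 14 in PBS libraries. DNAJA1P3 had 0 to 1 counts in ADC and 0 to 13 in PBS libraries.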
